A study of Solanum tuberosum with 12 samples.

Results

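Line 9 is 1 of 3 StRIK-RNAi lines of potato (Solanum tuberosum) whose tuber periderm was sequenced together with the Wild type. The comparison takes the 3 line 9 libraries and the 3 Wild type libraries, 6 of the 12 libraries of the series, and all 54416 transcripts of the deposited tables. Of these, 38364 had at least 10 counts over the 12 libraries and were tested. Line 9 plants were StRIK-RNAi transgenic plants of the cultivar Désirée, with a hairpin against StRIK in the vector pBIN19RNAi that also gives resistance to kanamycin. Lines 12 and 47 came from separate transformation events with the same construct, and the Wild type was Désirée with the genotype labelled Wild-type. Each line is 1 transformation event, so an effect of silencing and an effect of that event cannot be told apart within line 9. The promoter of the hairpin is not given in the sources used here.

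All plants grew in soil with 12 h light and 12 h dark, and the skin of freshly harvested tubers, which holds phellem and phellogen, gave 3 biological replicates of each group. The sources used here do not say whether replicates were separate plants, so p-values measure the spread between these libraries, which may be partly technical. Effective counts, the estimated counts that eXpress gives each transcript, added up to 19153261 to 21111910 per line 9 library, 18947964 to 21585122 over lines 12 and 47, and 18650236 to 20210598 per Wild type library. The 3 line 9 libraries carry lane tag 7 and the 3 Wild type libraries lane tag 6, and what the tag marks is not stated. Tag and genotype therefore cannot be told apart when line 9 is set against the Wild type. Tag 7 is shared by line 9, the 3 libraries of line 12 and replicate 1 of line 47. No pair of libraries held identical values.

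Periderm replaces the epidermis of the tuber and seals it with phellem, a layer of dead cells with suberized walls that the phellogen forms. RIK proteins carry KH domains, a fold found in many RNA-binding proteins, and the maize protein was first found as a partner of the leaf development factor ROUGH SHEATH2. In hairpin RNAi the plant cuts a double-stranded RNA into small RNAs that direct the degradation of matching transcripts, and the degree of silencing commonly differs between transformants.

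The hairpin targets a stretch in the middle of the StRIK transcript. Splicing the genomic StRIK sequence of Group Phureja given with the study to fit its protein of 592 residues returned 12 exons and 1779 coding bases with the stop. In that sequence the fragment has 246 bases, 13.8% of the coding sequence, of which 21 lie in exon 8, 118 in exon 9 and 107 in exon 10. It is shown because every small RNA of the hairpin derives from it, with exon 9 in capitals. The fragment was taken by its stated coding positions, because the primers listed for cloning it were not found in this genomic sequence. Désirée may also differ from the sequence shown at single bases. The primers printed under it amplify across the join of exons 8 and 9 in RT-qPCR, from coding base 735 to coding base 845, and 88 of these bases lie inside the fragment. The study lists another StRIK primer pair, for exons 1 and 2, from coding base 64 to coding base 213 and thus outside the fragment.
StRIK-RNAi fragment: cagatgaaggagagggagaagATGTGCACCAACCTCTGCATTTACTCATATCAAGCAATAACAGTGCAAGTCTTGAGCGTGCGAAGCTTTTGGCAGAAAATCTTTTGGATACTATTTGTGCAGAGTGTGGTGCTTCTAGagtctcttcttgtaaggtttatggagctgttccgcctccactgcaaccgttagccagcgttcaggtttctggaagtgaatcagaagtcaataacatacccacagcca
StRIK exons 8-9 forward: aagaggacgtggttcgggata
StRIK exons 8-9 reverse: agcttcgcacgctcaagac

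StRIK was lower in all 3 line 9 libraries than in every Wild type library. The measure was the sum of the 3 isoforms that match the fragment (PGSC0003DMT400064729, PGSC0003DMT400064730 and PGSC0003DMT400064731), in CPM, counts relative to the library size after TMM scaling, which makes libraries comparable. Line 9 had 45.3, 72.2 and 61.0 CPM in replicates 1, 2 and 3, against 88.2, 83.2 and 82.6 CPM in the Wild type. The line 9 mean of 59.5 ± 13.5 CPM was 70.3% of the Wild type mean of 84.7 ± 3.08 CPM (SD, n = 3 each; p = 0.1 in an exact two-sided permutation test, and no smaller p is possible with 3 against 3). The line 9 libraries spread over 26.9 CPM, the Wild type libraries over 5.60 CPM.

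In lines 12 and 47, by the same measure, StRIK stood at 51.5% and 52.6% of the Wild type mean. Line 9 replicate 1 lay inside the range of those 6 libraries, and replicates 2 and 3 lay above all of them. The mean of line 9 was 135% of their mean of 44.1 ± 6.68 CPM (SD, n = 6), and the test of this difference gave p = 0.0952 (exact permutation of 3 against 6 libraries, two-sided, with 0.0238 as its lower limit). A difference in silencing between line 9 and the other lines was thus not separated from the spread between libraries. With line 9 replicate 1 left out, StRIK in line 9 was 78.6% of the Wild type, and with replicate 2 left out it was 62.8%.

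**Figure D1:**
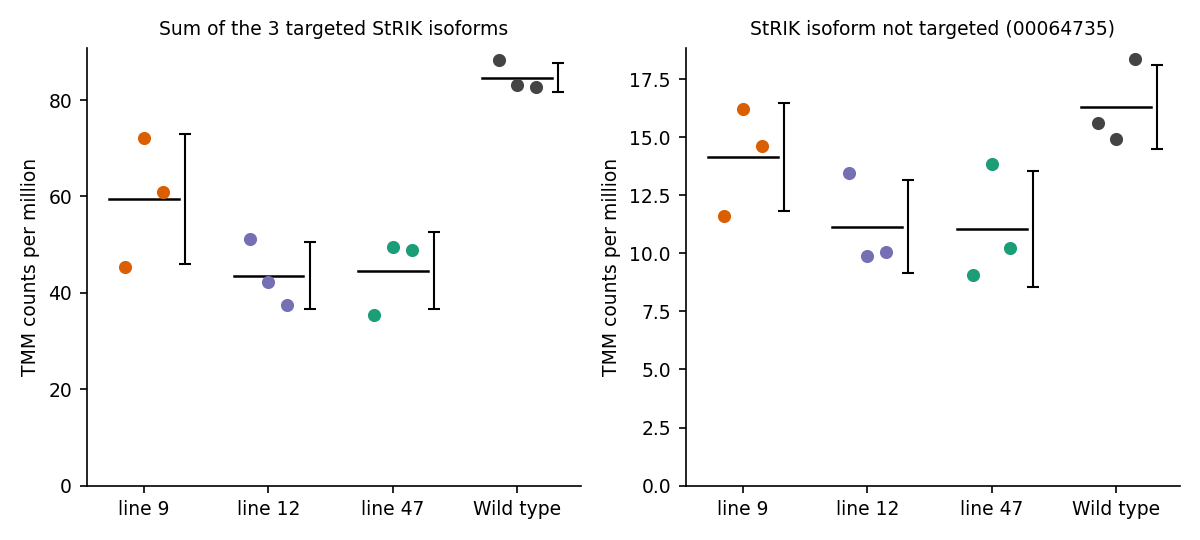
StRIK abundance in each library (points; vertical axis in CPM after TMM scaling), with the mean (horizontal line) and SD (bar) of the 3 libraries of line 9, line 12, line 47 and the Wild type. Left, the sum of the 3 targeted isoforms, with line 9 between 45.3 and 72.2 CPM and the Wild type between 82.6 and 88.2 CPM; right, the isoform outside the fragment.

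The isoforms were then taken one at a time, in normalized effective counts, that is, brought to a common library size with the TMM factors. PGSC0003DMT400064730, the representative transcript, had 298, 401 and 320 in line 9 against 589, 519 and 502 in the Wild type, so the groups did not overlap. Its log2 fold change was -0.66 (SE 0.19), and it did not pass the test across all transcripts (edgeR quasi-likelihood test with Benjamini-Hochberg adjustment, threshold 0.05, adjusted p = 0.318). This is the test behind every adjusted p below, with the 12 libraries in 1 fit and all fold changes given as line 9 minus the other group. The other targeted isoforms gave log2 fold changes of -0.44 each (adjusted p = 0.457 and 0.53), again with no overlap between line 9 and the Wild type. PGSC0003DMT400064735, the isoform that the fragment does not match, had 231, 322 and 291 counts in line 9 and 310, 297 and 365 in the Wild type, and there the groups overlapped. The isoforms share most of their sequence and eXpress divides shared reads among them, so their separate values are uncertain.

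Line 9 differed from the Wild type in a small set of transcripts. Most of them, 16 of 29, have no name in the sources used here, and the named ones include 4 transposon-related transcripts, 2 RNase H family proteins and 3 NPH3-type signal transducers. Of 38364 transcripts tested, 29 passed (0.0756%), 23 of them higher in line 9 (0.06%) and 6 lower (0.0156%). At an unadjusted p under 0.05 there were 4015. In all 29 the line 9 and Wild type libraries did not overlap, while over all transcripts tested every line 9 library lay above every Wild type library in 6.4% and below in 5.77%. Names were available for 13 of the 29, all from the study's list of 101 transcripts that differed between StRIK-RNAi and Wild type. That list was chosen on 1 line 9 library, libraries of lines 12 and 47 and these Wild type libraries together. Its members are therefore not independent evidence of a direction or of a likeness between the lines. Differences found mainly in line 9 could still enter it. Copper transporter 1 (PGSC0003DMT400053689) is on the list, with 69.4, 250 and 46.3 normalized counts in line 9 and at most 10.4 in any library of lines 12 and 47. In a fit of the 6 libraries alone, 2 transcripts passed, both without a name. Leaving out Wild type replicate 1 or 2 left 17 calls, leaving out line 9 replicate 2 left 18, and leaving out Wild type replicate 3 raised the number to 66.

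Transposases and retrotransposon proteins are the enzymes with which mobile elements copy or move themselves, and plants normally keep most of them silent. Of the 6 on the list, 4 passed, 2 higher and 2 lower in line 9. In all 6 the line 9 and Wild type libraries did not overlap. Over all transcripts tested, every line 9 library lay above every Wild type library in 6.4% and below in 5.77%.

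The Transposase transcript PGSC0003DMT400039369 had 314, 266 and 315 normalized counts in line 9, against 939, 1505 and 1216 in the Wild type. All line 9 libraries were far below the lowest Wild type library, at 24.5% of its mean (log2 fold change -2.03, SE 0.18, edgeR adjusted p = 0.000854). A different Transposase transcript, PGSC0003DMT400003803, went the opposite way. It had 131, 89.9 and 64.8 counts in line 9 against 4.53, 13.2 and 2.24 in the Wild type. Its mean was 14.3-fold higher in line 9 (log2 fold change 3.86, SE 0.45, edgeR adjusted p = 0.00522).

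Retrotransposon protein PGSC0003DMT400041204 had 568, 464 and 408 counts in line 9, against 13.99, 63.3 and 28.1 in the Wild type. The lowest line 9 library was well above the highest Wild type library, and the mean was 13.7-fold higher (log2 fold change 3.77, SE 0.39, edgeR adjusted p = 0.002). The LINE-type retrotransposon PGSC0003DMT400092517, of a class that copies itself through RNA without long terminal repeats, had 0, 1.51 and 3.33 counts in line 9 against 59.8, 45.8 and 39.8 in the Wild type. It was close to absent from line 9, at 3.33% of the Wild type mean (log2 fold change -4.80, SE 0.62, edgeR adjusted p = 0.0105). The remaining transcripts of this group did not pass. TNP2, partial (PGSC0003DMT400046437) had 0, 0 and 8.43 counts in line 9 and 35.7, 11.5 and 15.1 in the Wild type, and Transposon MuDR mudrA (PGSC0003DMT400085583) had 3.40, 5.82 and 7.37 in line 9 and 0 in each Wild type library. Copies of such elements are similar to each other, and how eXpress divided reads among them is uncertain.

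**Figure D2:**
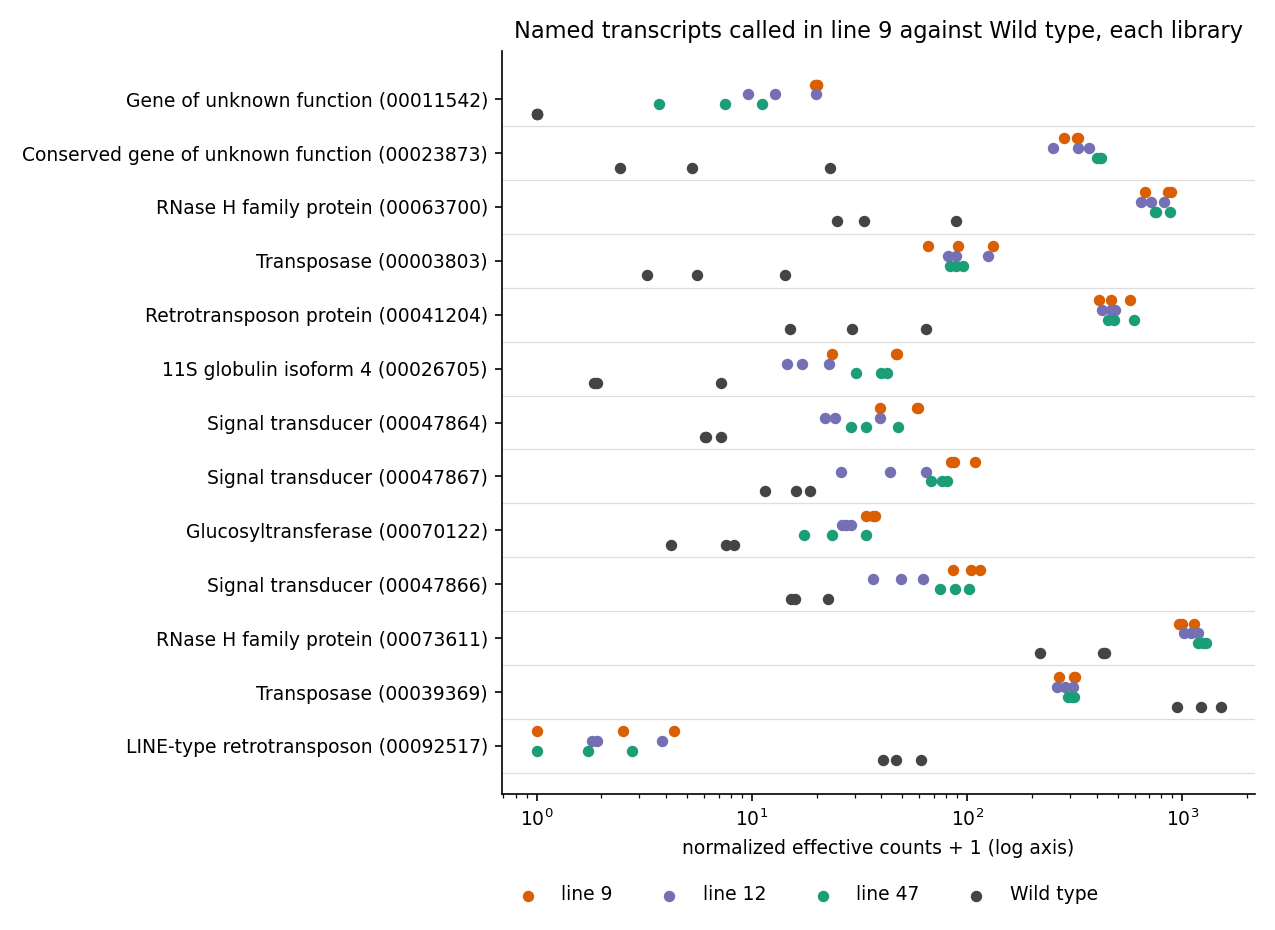
Normalized effective counts plus 1 (horizontal log axis) in each of the 12 libraries for the 13 named transcripts that passed the test of line 9 against the Wild type, with points for line 9, line 12, line 47 and the Wild type from top to bottom in each row and the last 8 digits of the identifier in brackets. Line 9 and Wild type points do not overlap in any row; for Transposase PGSC0003DMT400039369, line 9 lies between 266 and 315 and the Wild type between 939 and 1505.

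A further group of the list is RNA metabolism and splicing. RNase H enzymes cut the RNA strand of RNA-DNA hybrids, and related domains also occur in retrotransposons. Of 12 transcripts of this group, 2 passed, both RNase H family proteins and both higher in line 9. PGSC0003DMT400063700 had 857, 883 and 667 counts in line 9, against 23.8, 87.8 and 32.2 in the Wild type, a 16.7-fold higher mean with no overlap (log2 fold change 4.05, SE 0.38, edgeR adjusted p = 0.00131). PGSC0003DMT400073611 had 1130, 960 and 994 in line 9 against 217, 438 and 429 in the Wild type, 2.85-fold higher (log2 fold change 1.51, SE 0.23, edgeR adjusted p = 0.0312). This call depended on single libraries: it was lost without Wild type replicate 2, without any 1 line 9 library, without line 12 replicate 2 or 3 and without any 1 library of line 47 (adjusted p between 0.0589 and 0.102).

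The other RNase H transcripts did not pass. PGSC0003DMT400016670 had 75.3, 67.8 and 92.3 counts in line 9 and 13.7, 41.2 and 24.3 in the Wild type, PGSC0003DMT400022247 had 23.4, 22.42 and 35.5 in line 9 and 63.9, 70.2 and 66.9 in the Wild type, and PGSC0003DMT400063698 had 7.65, 13.5 and 10.6 in line 9 and 0 in each Wild type library. Members of 1 family thus stood on either side of the Wild type. Pre-mRNA-splicing factor syf2 (PGSC0003DMT400027449), a component of the splicing machinery, had 53.1, 52.5 and 60.5 in line 9 and 33.8, 36.1 and 29.4 in the Wild type (log2 fold change 0.74, edgeR adjusted p = 0.356).

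Signalling gave 3 calls of 12, all higher in line 9 and all for transcripts named Signal transducer, whose best Arabidopsis match is an NPH3 family protein. NPH3 itself acts in Arabidopsis downstream of the blue light receptor of phototropism. PGSC0003DMT400047864 had 57.6, 57.9 and 38.6 counts in line 9 against 5.08, 6.18 and 5.15 in the Wild type, 9.39-fold higher (log2 fold change 3.20, SE 0.36, edgeR adjusted p = 0.00349). PGSC0003DMT400047866 had 114, 103 and 85.0 in line 9 against 21.7, 14.9 and 14.2 in the Wild type, 5.96-fold higher (log2 fold change 2.55, SE 0.26, edgeR adjusted p = 0.002). PGSC0003DMT400047867 had 107, 86.2 and 83.4 in line 9 against 17.5, 10.48 and 15.1 in the Wild type, 6.43-fold higher (log2 fold change 2.67, SE 0.32, edgeR adjusted p = 0.00625, and 0.055 without Wild type replicate 2). How eXpress divided reads among these similar transcripts is uncertain. Transducin transcripts, which carry WD40 repeats, had lower values in line 9 without passing. PGSC0003DMT400054498, PGSC0003DMT400054499, PGSC0003DMT400054500 and PGSC0003DMT400054501 had log2 fold changes of -0.75, -0.69, -0.76 and -0.76 (edgeR adjusted p between 0.18 and 0.284). In each of them all line 9 libraries were below all Wild type libraries, as in 5.77% of all transcripts tested.

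Of 12 stress transcripts, 1 passed. It was 11S globulin isoform 4 (PGSC0003DMT400026705), a seed storage protein of the cupin family, with 46.1, 45.9 and 22.6 counts in line 9 against 6.18, 0.85 and 0.90 in the Wild type (14.5-fold higher, log2 fold change 3.74, SE 0.54, edgeR adjusted p = 0.025). The call was lost without line 9 replicate 1 or 2, Wild type replicate 2 or 3, line 12 replicate 3, or line 47 replicate 2 or 3 (adjusted p between 0.051 and 0.159). It was also lost with limma-voom (0.101) and with the replicate block (0.0757), while in these settings the log2 fold change stayed between 3.35 and 3.88. Dehydration responsive element binding protein (PGSC0003DMT400061541) is a transcription factor whose Arabidopsis counterpart the paper links to drought, salt and heat. It had 39.3, 23.7 and 18.4 counts in line 9 and 2.26, 2.19 and 4.56 in the Wild type. These did not overlap, but the test was not passed (log2 fold change 3.25, SE 0.64, edgeR adjusted p = 0.155). K+ channel inward rectifying (PGSC0003DMT400024872), which takes up potassium, had 9.55, 14.5 and 20.3 counts in line 9 and 1.53, 0 and 0 in the Wild type. A count of 0 allows up to 3 counts in a library, and all Wild type libraries lay under this floor. The line 9 mean was 4.93-fold the floor (edgeR adjusted p = 0.0831, and 0.0437 without line 12 replicate 2). This is not a strict lower bound, because 1 Wild type library was not at 0. Such floors cover counting error only, since PCR copies are counted as separate reads.

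Glucosyltransferase (PGSC0003DMT400070122), which attaches glucose to small molecules, was the 1 call among 11 metabolism transcripts tested. It had 35.5, 36.3 and 33.04 counts in line 9, against 3.23, 7.29 and 6.60 in the Wild type, 6.12-fold higher and nearly equal among the line 9 libraries (log2 fold change 2.65, SE 0.35, edgeR adjusted p = 0.0111). It was lost without Wild type replicate 1 (adjusted p = 0.0726) or line 9 replicate 2 (0.0597). The LINE-type retrotransposon above was lost without either of these libraries too (0.0726 and 0.0809) and without Wild type replicate 2 (0.0543), and Transposase PGSC0003DMT400003803 without Wild type replicate 1 (0.0533).

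The last of the named calls were genes of unknown function. PGSC0003DMT400023873 had 322, 282 and 328 counts in line 9 against 1.43, 22.2 and 4.28 in the Wild type, 33.5-fold higher (log2 fold change 5.07, SE 0.52, edgeR adjusted p = 0.002). PGSC0003DMT400011542 had 19.2, 18.7 and 19.0 in line 9 and 0 in each Wild type library, at least 6.32-fold higher than the floor of 3 counts per library (edgeR adjusted p = 0.0312). The call for PGSC0003DMT400011542 was lost without Wild type replicate 1 or 2, any 1 line 9 library, line 12 replicate 3 or line 47 replicate 1 (adjusted p between 0.0658 and 0.124).

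The whole list was then read in line 9. Of the 101 transcripts 100 were tested, and 13 passed, 11 higher and 2 lower in line 9. Of all transcripts tested, 0.0756% passed in line 9. The list gave 12 calls in line 12 and 21 in line 47, against the same Wild type libraries. Every line 9 library lay above every Wild type library in 45, below in 21, and 34 overlapped. Over all transcripts tested the shares were 6.4% above and 5.77% below. The median log2 fold change was 0.60 over the 94 members with at most 1 group at the floor, those with 1 group there taken at their bound, and 0.43 without the rRNA-like transcripts, beside 0.00 over all transcripts tested. The list holds more transcripts chosen as higher than as lower, so these counts and medians describe its composition and are no separate result of line 9. No transcript passed among 5 of proteolysis (3 at an unadjusted p under 0.05, 3 by DESeq2 and 1 by limma-voom) and 4 of acyl lipid metabolism (3 unadjusted, 0 by DESeq2 and 0 by limma-voom). In proteolysis, Nb cell death marker (PGSC0003DMT400026261) had 1098, 3189 and 2447 counts in line 9 and 190, 269 and 510 in the Wild type (log2 fold change 2.80, edgeR adjusted p = 0.0521).

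**Figure D3:**
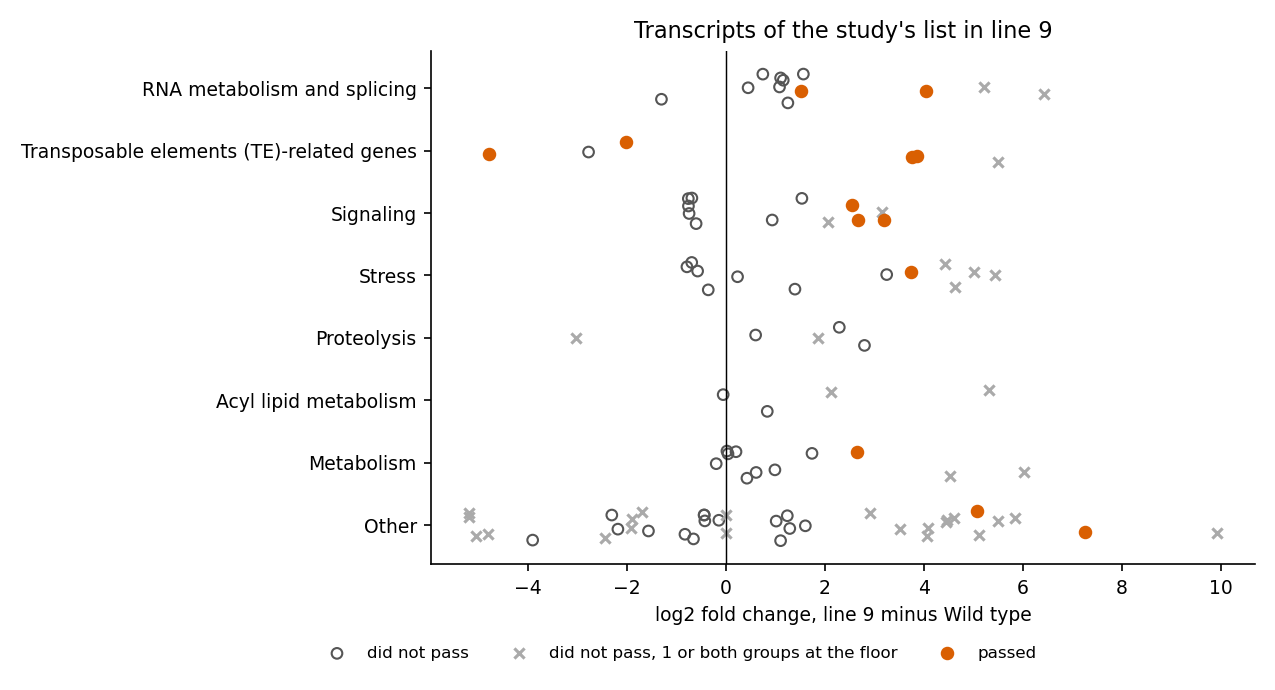
Log2 fold change of line 9 minus Wild type (horizontal axis) for the 100 tested transcripts of the study's list by functional category. Filled points passed the test, 13 in all, open circles did not, and crosses did not and had a group at the floor of 3 counts, where the fitted value depends on the prior count. Transposon-related transcripts lie on either side of 0.

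Marker transcripts from the list were summed in each library. The 8 rRNA-like transcripts on the list summed to 20911 to 30736 normalized counts in the line 9 libraries, 8949 to 22597 in line 12, 11583 to 325989 in line 47 and 8830 to 14295 in the Wild type. All 8 were above every Wild type library in line 9, as were 6.4% of all transcripts tested. None of them passed (edgeR, 0 also at an unadjusted p under 0.05, by DESeq2 and by limma-voom). The fit takes the spread of a transcript from all 12 libraries, and line 47 replicates 2 and 3 summed to 325989 and 217737. The lack of calls therefore does not show that line 9 was like the Wild type in these transcripts. For green tissue, Chlorophyll a-b binding protein 3C, Ribulose bisphosphate carboxylase large chain and Protein phosphatase were summed. The sum was 20.2 to 57.9 counts in line 9, 23.7 to 32.7 in line 12, 21.5 to 160 in line 47 and 1.06 to 7.98 in the Wild type. None of the 3 passed in line 9 against the Wild type (edgeR, 3 at an unadjusted p under 0.05, 0 by DESeq2 and by limma-voom). The line 9 counts were low and came mainly from Ribulose bisphosphate carboxylase large chain in replicates 1 and 2 (43.74 in replicate 2, against 3.56 in replicate 3 and 2.52, 0 and 1.28 in the Wild type). Their part in the differences of line 9 was not tested. The 6 phenylpropanoid and wall transcripts summed to 183125 to 249265 counts in line 9 and 164783 to 197614 in the Wild type, nearly all from phenylalanine ammonia-lyase and Peroxidase, while Arabinogalactan protein was at 0 in all 6 libraries and UPF0497 membrane protein at 0 in line 9. Suberin genes, which would mark phellem, are not paired with these identifiers in the sources used here and were not analysed here.

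Abundant stress, metabolism and lipid transcripts of the list came without a call. Among the 13 with a mean of at least 1000 normalized counts, 0 passed in line 9 (edgeR, 1 at an unadjusted p under 0.05, 1 by DESeq2 and 0 by limma-voom). Peroxidase, Catalase, D12 oleate desaturase and Metallothionein type 2 had log2 fold changes of 0.04, 0.02, -0.06 and 0.23, and their line 9 and Wild type libraries overlapped. Phenylalanine ammonia-lyase (PGSC0003DMT400049886), which opens the phenylpropanoid pathway, had 99345, 50091 and 73931 counts in line 9 against 48636, 48812 and 49069 in the Wild type, with a wide spread in line 9 (log2 fold change 0.61, SE 0.35, edgeR adjusted p = 0.551). The 25 kDa protein dehydrin (PGSC0003DMT400025812), of a family that protects cells during water loss, stood apart: it had 34867, 31178 and 33943 counts in line 9, against 58548, 56464 and 57988 in the Wild type. All line 9 libraries were below all Wild type libraries, at 57.8% of their mean, but the test was not passed (log2 fold change -0.79, SE 0.20, edgeR adjusted p = 0.275). DESeq2 gave an adjusted p of 3.23e-06, and over 22 alternatives it lay between 3.23e-06 and 0.8.

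Transcripts with short matches to the fragment, 7 in number besides StRIK, were also read, since small RNAs of the hairpin could reach them. None passed in line 9 (edgeR, 0 also at an unadjusted p under 0.05, by DESeq2 and by limma-voom). The 3 transcripts named EMB1865 had log2 fold changes of -0.30, -0.38 and -0.36 (edgeR adjusted p between 0.537 and 0.729), and Dnajc14 protein had -0.10.

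Of the 16 called transcripts without a name, 12 were higher (log2 fold changes of 1.25 to 4.04) and 4 lower (-4.44 to -2.23). PGSC0003DMT400056809 had 3.73, 4.67 and 8.51 counts in line 9 against 144, 124 and 122.3 in the Wild type, 4.32% of its mean (log2 fold change -4.44, SE 0.26, edgeR adjusted p = 2.93e-05), the smallest adjusted p of the comparison. PGSC0003DMT400056808 had 3.97, 4.94 and 14.4 in line 9 against 125.7, 139 and 172 in the Wild type (log2 fold change -4.19, SE 0.38, edgeR adjusted p = 0.000933). Among the higher ones, PGSC0003DMT400096877 had 283, 253 and 257 in line 9 against 31.0, 42.2 and 28.7 in the Wild type (log2 fold change 2.94, SE 0.23, edgeR adjusted p = 0.000357). PGSC0003DMT400025380 had 293, 217 and 280 against 58.0, 69.6 and 81.6 (log2 fold change 1.92, SE 0.19, edgeR adjusted p = 0.00188). In none of the 4 did a line 9 library reach the range of the Wild type.

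Presence and absence were counted separately, with the Wild type at or under 3 normalized counts in each library and line 9 at 10 or more in each. There were 7 such transcripts and 1 in the reverse direction. Copper transporter 1 (PGSC0003DMT400053689), named here after its values were seen, had 69.4, 250 and 46.3 counts in line 9 and 0 in each Wild type library, a mean at least 40.6-fold above the floor (edgeR adjusted p = 0.0781). F-box family protein (PGSC0003DMT400040325), of a family that selects proteins for degradation, had 0, 2.69 and 2.92 in line 9 and 17.1, 13.6 and 20.2 in the Wild type (edgeR adjusted p = 0.219).

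How far line 9 stands from the other silenced lines was tested directly, line 9 minus the mean of lines 12 and 47, which uses no Wild type library in the difference. Line 9 differed in 9 of 38364 transcripts (0.0235%), 5 higher (0.013%) and 4 lower (0.0104%), with 4911 at an unadjusted p under 0.05. None of the 9 has a name, and 6 of them were also called against the Wild type. Every line 9 library lay beyond all 6 libraries of lines 12 and 47 in 8 of the 9, where 2.66% of all tested transcripts lay above and 2.54% below. The number was 4 without line 9 replicate 2, 71 without line 9 replicate 3, 22 without Wild type replicate 3, 17 without line 12 replicate 1, and 6 without line 12 replicate 3 or without line 47 replicate 2 or 3. With only the libraries of lane tag 7, 1 transcript passed, PGSC0003DMT400056809.

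Values of the named calls were then set beside those of the other lines, on whose libraries the list was also chosen. The comparisons of the 3 lines with the Wild type share its libraries, so their values are set side by side without a measure of overlap. Line 12 had 21 calls against the Wild type (0.0547%, with 0.0443% higher and 0.0104% lower) and line 47 had 29 (0.0756%). Transposase PGSC0003DMT400039369 had log2 fold changes of -2.03, -2.10 and -2.01 in lines 9, 12 and 47, and Retrotransposon protein 3.77, 3.69 and 3.85. The conserved gene of unknown function PGSC0003DMT400023873 had 5.07, 5.08 and 5.47, and the LINE-type retrotransposon -4.80, -4.71 and -5.47. In the direct test, line 9 minus the mean of lines 12 and 47 was 0.02 for Transposase PGSC0003DMT400039369 (95% interval from -0.27 to 0.31), -0.01 for Retrotransposon protein (-0.57 to 0.56), 0.08 for RNase H PGSC0003DMT400063700 (-0.47 to 0.64) and 0.29 for the LINE-type retrotransposon (-1.27 to 1.86).

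Over the 13 named calls this difference ran from -0.21 to 1.04, and none passed (edgeR, 4 at an unadjusted p under 0.05). The Signal transducers made up 3 of those 4. PGSC0003DMT400047866 had 114, 103 and 85.0 counts in line 9, against 35.4, 48.4 and 61.2 in line 12 and 87.02, 74.1 and 101 in line 47 (log2 difference 0.63, SE 0.20, edgeR adjusted p = 0.259). Line 9 was above line 12 in every library and overlapped line 47. For PGSC0003DMT400047867 every line 9 library lay above all 6 libraries of the other lines, as in 2.66% of all transcripts tested. Its log2 difference was 0.70 (SE 0.24, edgeR adjusted p = 0.294). PGSC0003DMT400047864 overlapped the other lines. Of the whole list, 0 of 100 transcripts differed between line 9 and the other lines by edgeR and by limma-voom, 25 at an unadjusted p under 0.05 and 5 by DESeq2. Over all 38364 transcripts tested, this comparison gave 9 calls by edgeR, 7 by limma-voom and 481 by DESeq2. An unadjusted p under 0.05 (edgeR) was found in 4911 of them (12.8%). A difference missing the threshold does not show that the lines are alike.

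**Figure D4:**
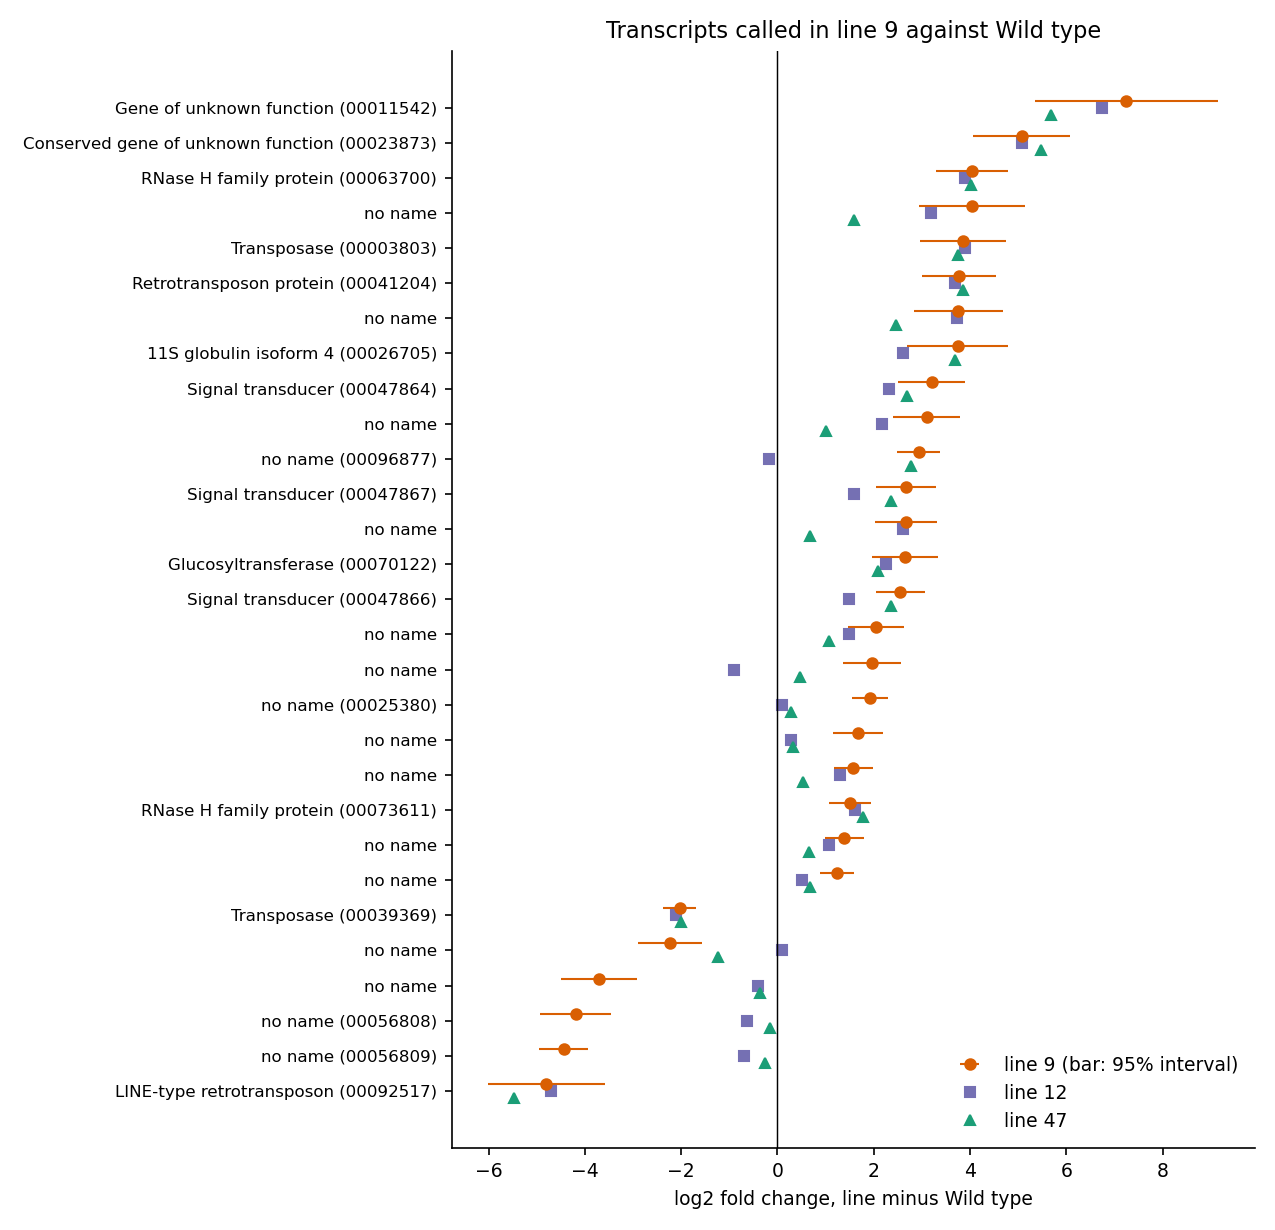
Log2 fold change against the Wild type (horizontal axis) of the 29 transcripts called in line 9, for line 9 (circles, bars for the 95% interval), line 12 (squares) and line 47 (triangles), which share the Wild type libraries. For Transposase PGSC0003DMT400039369 the 3 lines lie between -2.10 and -2.01, for Signal transducer PGSC0003DMT400047866 between 1.48 and 2.55, and for PGSC0003DMT400056809 line 9 is at -4.44, line 12 at -0.69 and line 47 at -0.26.

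Transcripts that passed the direct test are given next. PGSC0003DMT400056809, nearly absent from line 9, had 84.3, 84.7 and 72.5 counts in line 12 and 125, 92.3 and 108 in line 47 (line 9 minus both, log2 -3.97, SE 0.25, edgeR adjusted p = 5.88e-05). PGSC0003DMT400056808 had 70.3, 116 and 94.8 in line 12 and 150, 111 and 128 in line 47 (log2 -3.79, SE 0.36, edgeR adjusted p = 0.00201; with lane tag 7 alone, log2 -3.90 and adjusted p = 0.255). Line 9 was far below each of these libraries.

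PGSC0003DMT400025380 had 82.7, 63.2 and 78.0 counts in line 12 and 92.6, 73.5 and 86.6 in line 47, all below every line 9 library (log2 1.73, SE 0.15, edgeR adjusted p = 0.00159; with lane tag 7 alone, log2 1.66 and adjusted p = 0.294). PGSC0003DMT400096877 split the other lines. It had 34.0, 24.2 and 33.2 in line 12 and 203, 308 and 202 in line 47, so that line 9 overlapped line 47 and lay above line 12 (log2 1.63, SE 0.18, edgeR adjusted p = 0.00655; with lane tag 7 alone, log2 1.74 and adjusted p = 0.255).

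PGSC0003DMT400023485, a further lower call that is named here after its values were seen, was near the Wild type in line 9 and higher in the other lines. It had 17.2, 40.4 and 48.5 counts in line 9, 154, 154 and 141 in line 12, 142, 142 and 115 in line 47, and 28.9, 38.8 and 22.5 in the Wild type. Line 9 was at 25.01% of the mean of lines 12 and 47 (log2 -1.98, SE 0.28, edgeR adjusted p = 0.0458) and overlapped the Wild type (log2 0.24, adjusted p = 0.82). The call against lines 12 and 47 was lost without Wild type replicate 1 or 2, line 9 replicate 2, or any 1 library of lines 12 and 47 (adjusted p between 0.0542 and 0.128).

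**Figure D5:**
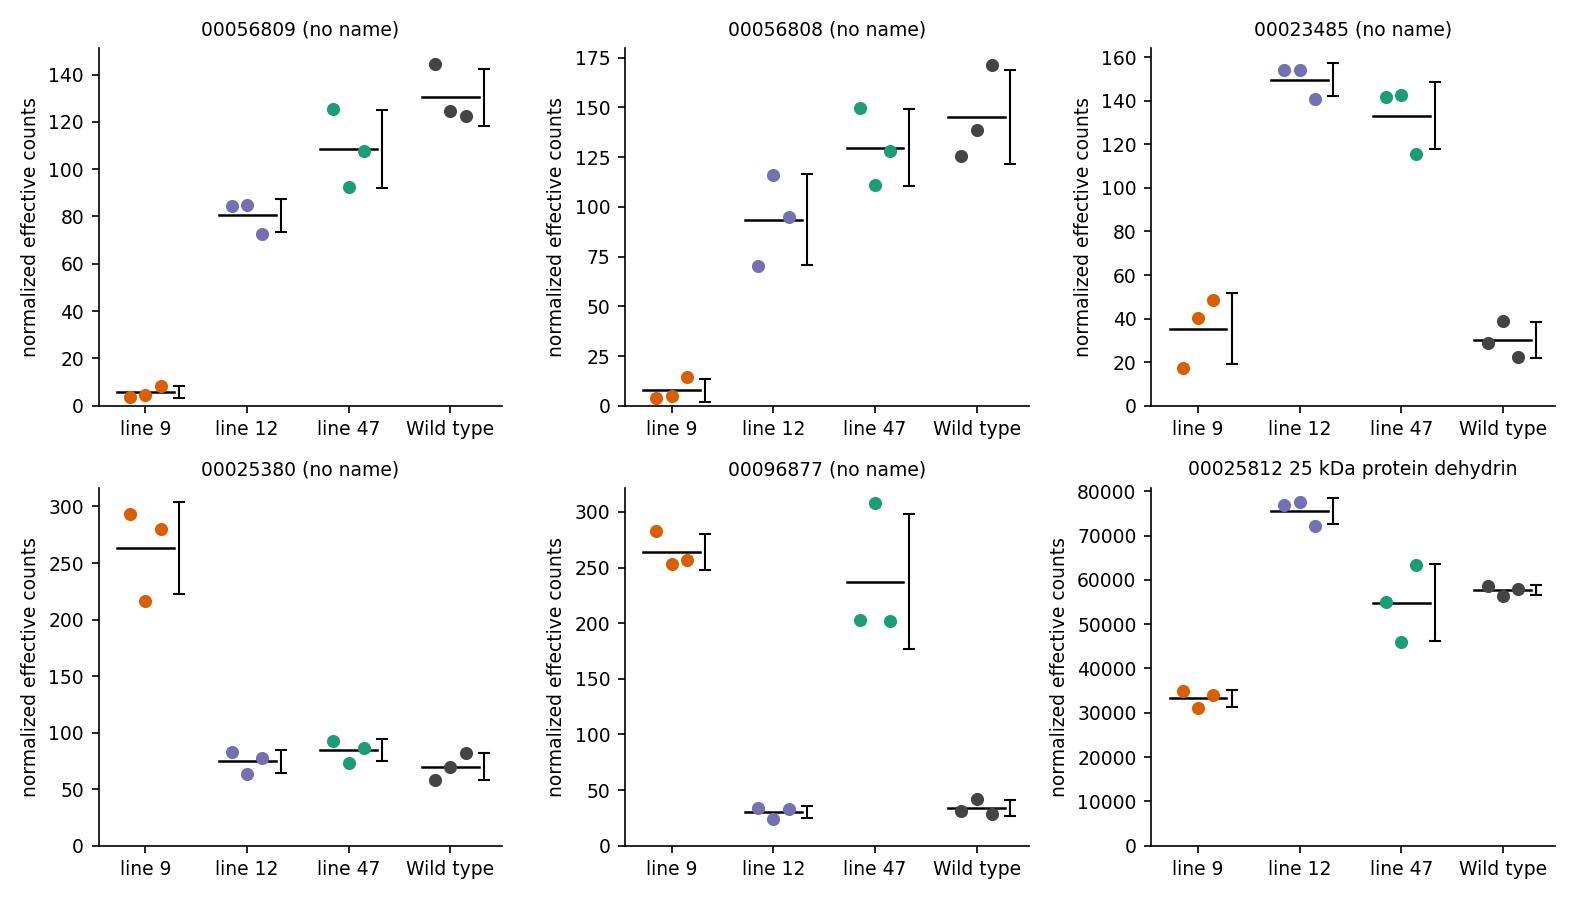
Normalized effective counts (vertical axis) in each library of line 9, line 12, line 47 and the Wild type for 5 transcripts without a name that passed the test of line 9 against lines 12 and 47 and for 25 kDa protein dehydrin, which did not; the horizontal line is the mean and the bar the SD of 3 libraries. For PGSC0003DMT400056809 line 9 lies between 3.73 and 8.51 and the other libraries between 72.5 and 144.

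Some listed transcripts had other values in line 9 than in lines 12 and 47 without passing the direct test. The proteolysis transcript PGSC0003DMT400024552, a gene of unknown function chosen after its values were seen, had 8.10, 5.62 and 2.42 counts in line 9, 39.1, 15.8 and 47.0 in line 12, 57.3, 46.1 and 54.5 in line 47, and 5.18, 1.24 and 3.95 in the Wild type. All line 9 libraries were below all libraries of lines 12 and 47 (log2 -2.98, SE 0.48, edgeR adjusted p = 0.094). Dehydration responsive element binding protein was at 36.5% of lines 12 and 47 in line 9 and overlapped them (log2 -1.46, SE 0.40, edgeR adjusted p = 0.223). The 25 kDa protein dehydrin had 76944, 77475 and 72156 counts in line 12 and 55017, 46079 and 63445 in line 47, all above every line 9 library (log2 -0.95, SE 0.18, edgeR adjusted p = 0.122). DESeq2 gave an adjusted p of 1.09e-12 for this difference, and over 23 alternatives the value lay between 1.09e-12 and 0.418. In the opposite direction, Copper transporter 1 had 10.4, 0 and 1.99 counts in line 12 and 0, 0 and 1.58 in line 47, below every line 9 library (log2 6.04, SE 0.80, edgeR adjusted p = 0.061).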

How the data were processed

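The authors sequenced periderm RNA (TruSeq libraries, Illumina HiSeq), checked reads with FastQC 0.11.2, aligned them with Bowtie 2 to transcripts of the Group Phureja genome annotation and ran eXpress 1.5.1. The deposited values are its effective counts, estimated counts per transcript that are not whole and not normalized between libraries. Here they were rounded to whole numbers, scaled by TMM and fitted with edgeR 4.0.16 in R 4.3.3 (glmQLFit and glmQLFTest, Benjamini-Hochberg adjustment over the 38364 transcripts with at least 10 counts in all, threshold 0.05). The 12 libraries entered 1 fit with 4 groups, and contrasts were line 9 minus Wild type and line 9 minus the mean of lines 12 and 47. The SE is the fold change over the square root of the F statistic. Libraries took group and replicate from their labels. Normalized counts were scaled to a mean effective library size of 19876858, and a group was at the floor when no library exceeded 3. Total counts per library lay between 18650236 and 21585122.

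Names, categories and short matches were taken from the study's supplementary lists, whose columns of the authors' counts, fold changes and p-values were not used. The StRIK coding sequence was spliced in Python 3.11.15 and figures drawn with matplotlib 3.10.9. Named transcripts were the StRIK isoforms, named calls, the 2 higher and 2 lower unnamed calls with the smallest adjusted p, those measured by RT-qPCR in the study, abundant listed stress, metabolism and lipid transcripts, and those with short matches. Transcripts outside this rule are marked. The members and lists were chosen with earlier results of these data known.

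On counts simulated for line 9 against Wild type over 37953 transcripts, edgeR recovered 66% of 200 changed transcripts, and 5 of its 137 calls were false. By size it recovered 14.9% for a log2 fold change of 1, 86.2% for 2 and 97.1% for 3. For line 9 against lines 12 and 47, over 37959 transcripts, 77% were recovered (45.3%, 93.8% and 98.3% for these sizes), and 5 of 159 calls were false. Changed transcripts were drawn from those with a mean above 2 CPM, and only line 9 was changed. No effect of lane tag or transformation event was simulated, so these rates need not hold in the real data. Other settings tried were RLE size factors, no minimum count, limma-voom from limma 3.58.1, DESeq2 1.42.0, filterByExpr, a robust prior, the replicate number as a block, no rRNA-like transcripts, only the libraries compared, only lane tag 7, and each library left out in turn. Leaving out both lane tag 6 libraries of line 47 was chosen after seeing the data.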

Additional observations from a re-analysis of the deposited data

Results flagged for a closer look

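Line 9 differed from the mean of lines 12 and 47 in the test of that difference itself for 5 transcripts that the text names by identifier, none of which has a name in the sources used here. On the log2 scale the difference, line 9 minus lines 12 and 47, was -3.97 for PGSC0003DMT400056809, -3.79 for PGSC0003DMT400056808, -1.98 for PGSC0003DMT400023485, 1.73 for PGSC0003DMT400025380 and 1.63 for PGSC0003DMT400096877. For the last of these, line 9 overlapped line 47. With only the libraries of lane tag 7, PGSC0003DMT400056809 still passed (adjusted p = 0.0403 by edgeR) and the other 4 did not (adjusted p between 0.255 and 0.376). Their differences in that setting were -3.90 for PGSC0003DMT400056808, -2.02 for PGSC0003DMT400023485, 1.66 for PGSC0003DMT400025380 and 1.74 for PGSC0003DMT400096877, about as large as with all libraries.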

How the results depend on the processing

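Counts of calls depended on the tool, the libraries and the block. Line 9 against the Wild type gave 29 calls, 261 with DESeq2, 2 with only the libraries compared and 16 with the replicate block. For the study's list the same 3 settings gave 31, 0 and 8, in place of 13. With only the libraries compared, 64 of its 90 transcripts tested had an unadjusted p under 0.05 (edgeR), beside 2603 of 36665 over all transcripts. Line 9 against lines 12 and 47 gave 9 calls, 481 with DESeq2, 7 with the replicate block, 1 with only lane tag 7 and 2 when line 47 replicates 2 and 3, which carry lane tag 6, were left out. Deviations of same-numbered line 9 and Wild type libraries from their group means correlated at -0.10, -0.28 and -0.30, those of other pairs between -0.01 and 0.27. Whether equal replicate numbers mark samples handled together is not stated. These deviations sum to 0 within each group and cannot decide it. When 1 library at a time was left out, the counts lay between 17 and 66, between 4 and 71 and, for the list, between 8 (without line 9 replicate 2) and 15, and StRIK in line 9 lay between 62.8% and 78.6% of the Wild type. With a minimum of 20 counts, 2 transcripts were present in line 9 and at the floor in the Wild type, and 0 the reverse, in place of 7 and 1. DESeq2 added calls for K+ channel inward rectifying, Dehydration responsive element binding protein, 25 kDa protein dehydrin and RNase H PGSC0003DMT400063698 (adjusted p = 0.0104, 0.00169, 3.23e-06 and 0.00533). All 29 calls were among those of DESeq2 and 24 among those of limma-voom. Of the 13 named calls, 6 were lost only with the 6 libraries alone and the other 7 in further settings. No named transcript that passed changed direction in the settings run. Few simulated transcripts with a log2 fold change of 1 were recovered against the Wild type, so differences of that size can be missed with 3 libraries a group. The simulation changed no transcript of low abundance and held no effect of lane tag or event, so its rates need not hold in the real data. The causes were not tested.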
